A study of Homo sapiens with 9 samples.

Results

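The 10 genes of blood cell identity GATA1, GATA2, TAL1, LMO2, RUNX1, SPI1, KIT, PTPRC, ITGAM and HBA1 were followed through 9 RNA sequencing libraries of HAP1 cells. They are given by a list of names that uses no measured value, drawn up with earlier results of these data known, and all 10 were found among the 26485 gene models counted. HAP1 is a near-haploid human line of chronic myeloid leukaemia origin that no longer grows in suspension but attached to plastic. All cells were labelled wild type and were grown without any stated treatment. Total RNA was isolated on NAxtra magnetic beads from 1 sorted cell (Single Cell Rep 1, 2 and 3) and from 10, 100 and 1000 sorted cells (2 libraries each), and was sequenced after SMART-Seq Stranded library preparation. The design asked whether the expression profile of larger cell numbers was kept down to the single cell. All libraries come from 1 cell line, and the labels call the replicates biological without saying whether they came from separate cultures, so p-values may measure a spread that is partly technical.

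Blood formation is directed by a small group of transcription factors that act together. GATA2 and RUNX1 are used by stem and progenitor cells, TAL1 and LMO2 join GATA factors in a DNA-bound complex, GATA1 drives red cell and platelet formation, and SPI1 (PU.1) drives myeloid and B cell formation. KIT is the receptor of stem cell factor on progenitors and mast cells, PTPRC is CD45, a phosphatase on the surface of nearly all leukocytes, ITGAM is CD11b, an integrin chain of myeloid cells, and HBA1 encodes an alpha chain of adult haemoglobin.

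The libraries held 42842970 to 61645865 counts assigned to genes. A level is given as counts per 1000000 assigned counts (CPM) after TMM scaling of the library sizes, and levels of different genes are compared only as TPM, which first divide counts by exon length. A gene was counted as expressed when it reached at least 1 CPM in each of the 6 libraries of 10, 100 and 1000 cells, and as being at the floor when it had at most 3 counts in each of the 9 libraries. Of the gene models that met the first rule, 127, 178 and 262 of 12538 had 0 counts in Single Cell Rep 1, 2 and 3, in that order, so Single Cell Rep 3 lacked the most. Single cells differed from each other by a chi-square of 234 to 290 per degree of freedom, while the pairs of libraries of 10, 100 and 1000 cells differed by 6.01 to 31.5.

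Of the 10 blood lineage genes, 3 were expressed in HAP1, namely GATA2, RUNX1 and KIT, beside 47.3% of all gene models. GATA1 and PTPRC were at the floor, beside 28.6% of all gene models. The other 5, TAL1, HBA1, ITGAM, SPI1 and LMO2, lay between these limits. The expressed members were factors of progenitor cells and a receptor. The lineage factors GATA1 and SPI1 and the leukocyte surface proteins PTPRC and ITGAM had at most 3 counts in any library of 10, 100 and 1000 cells. The remaining members did not follow such a split. In the same libraries TAL1 and LMO2, of 1 DNA-bound complex, had 22 to 147 and 0 to 10 counts. HBA1, a gene of mature red cells, had 3 to 30. Over 3 counts were found for 6 members in Single Cell Rep 1, 5 in Single Cell Rep 2 and 3 in Single Cell Rep 3, against 4 to 6 in the libraries of more cells. At least 1 count was found for 6, 5 and 5 members in these cells, against 5 to 6 in the other libraries. By that rule all gene models seen numbered 14478, 14290 and 13968 in the cells, against 16283 to 18634.

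**Figure D1:**
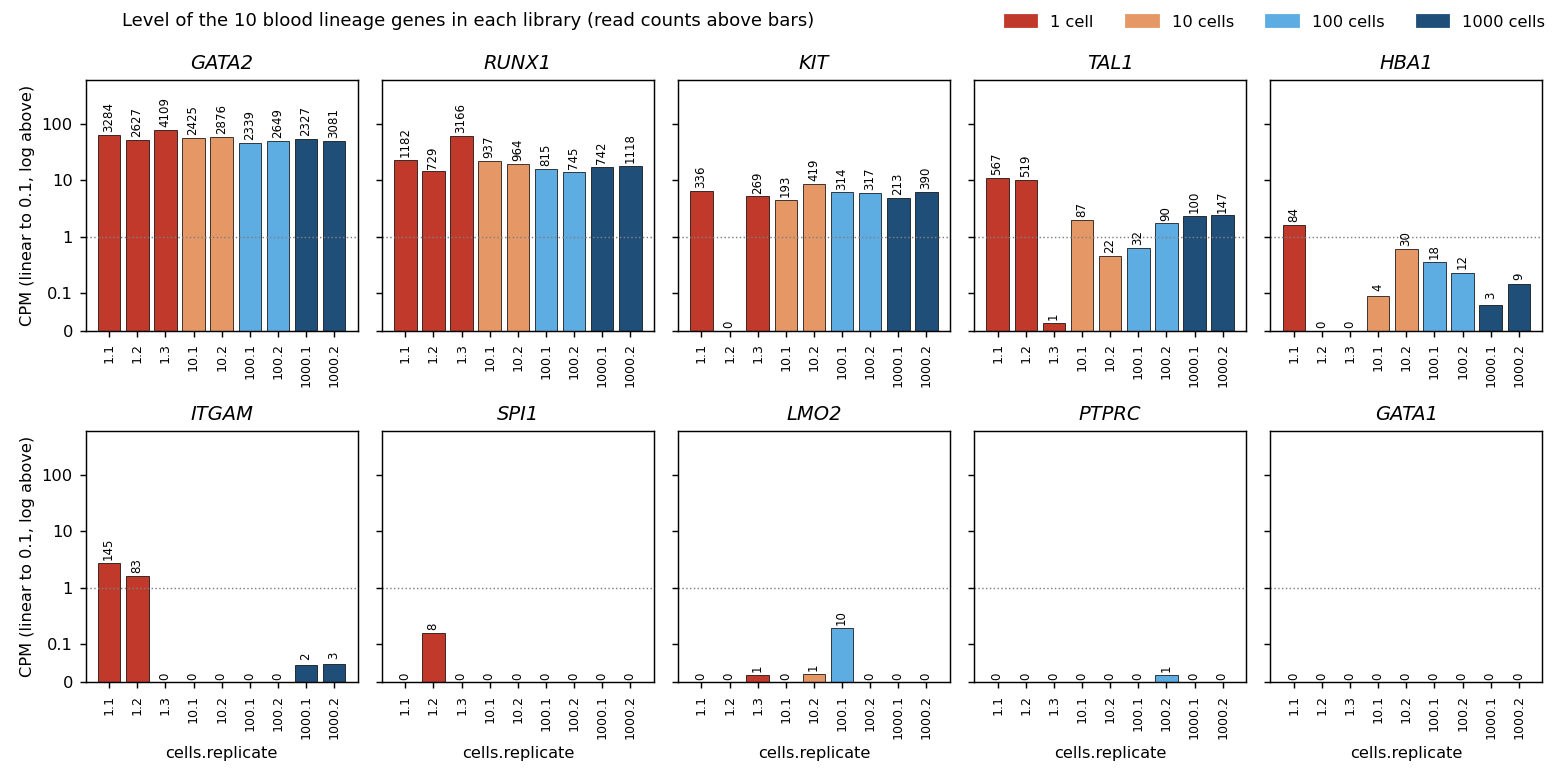
Level of each of the 10 members in the 9 libraries, as bars in CPM on an axis that is linear to 0.1 and logarithmic above, with the read count printed over each bar and bars coloured by cell number. The dotted line marks 1 CPM. GATA2 and RUNX1 stand over it in all 9 libraries, KIT in all but Single Cell Rep 2, and GATA1 has no bar.

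The sequence just before each gene's start is shown for 6 members, because the expressed and the other members among these 6 differed in how many CpG dinucleotides it held. Start windows of 300 bases, from 250 bases before to 50 after the first base of a transcript, were taken from RefSeq (GRCh38.p14), whose table held 9 windows of 7 members (GATA1, GATA2, ITGAM, KIT, PTPRC, RUNX1 and TAL1). The 250 bases before the start are printed 5′ to 3′ on the gene's strand, with each CpG in capitals. The first 3 lines are the expressed members, and the RUNX1 window belongs to a start inside the gene model.
GATA2, chr3:128493202-128493451, minus strand: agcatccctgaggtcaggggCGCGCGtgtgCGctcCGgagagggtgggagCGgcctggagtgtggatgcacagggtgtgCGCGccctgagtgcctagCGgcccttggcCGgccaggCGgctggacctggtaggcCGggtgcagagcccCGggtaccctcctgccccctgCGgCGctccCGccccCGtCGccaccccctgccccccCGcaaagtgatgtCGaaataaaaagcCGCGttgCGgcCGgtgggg
RUNX1, chr21:34888700-34888949, minus strand: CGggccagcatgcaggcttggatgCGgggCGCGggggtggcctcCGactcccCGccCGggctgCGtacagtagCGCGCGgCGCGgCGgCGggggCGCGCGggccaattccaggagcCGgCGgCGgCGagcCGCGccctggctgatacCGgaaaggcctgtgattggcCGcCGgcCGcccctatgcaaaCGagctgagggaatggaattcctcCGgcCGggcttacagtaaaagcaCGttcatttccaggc
KIT, chr4:54657707-54657956, plus strand: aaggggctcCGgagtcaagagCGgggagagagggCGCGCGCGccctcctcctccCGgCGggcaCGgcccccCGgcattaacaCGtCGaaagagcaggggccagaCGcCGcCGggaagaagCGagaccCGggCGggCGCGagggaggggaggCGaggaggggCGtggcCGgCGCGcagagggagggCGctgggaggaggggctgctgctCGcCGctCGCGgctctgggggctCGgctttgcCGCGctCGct
GATA1, chrX:48786340-48786589, plus strand: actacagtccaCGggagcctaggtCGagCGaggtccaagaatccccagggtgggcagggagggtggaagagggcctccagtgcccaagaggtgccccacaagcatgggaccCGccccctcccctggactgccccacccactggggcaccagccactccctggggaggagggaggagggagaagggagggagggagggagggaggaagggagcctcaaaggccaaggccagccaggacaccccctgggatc
ITGAM, chr16:31259725-31259974, plus strand: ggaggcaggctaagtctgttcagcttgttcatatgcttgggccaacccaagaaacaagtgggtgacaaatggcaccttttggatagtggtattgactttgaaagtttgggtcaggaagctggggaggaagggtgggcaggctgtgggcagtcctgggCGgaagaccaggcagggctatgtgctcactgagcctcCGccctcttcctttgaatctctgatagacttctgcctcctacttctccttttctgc
PTPRC, chr1:198638790-198639039, plus strand: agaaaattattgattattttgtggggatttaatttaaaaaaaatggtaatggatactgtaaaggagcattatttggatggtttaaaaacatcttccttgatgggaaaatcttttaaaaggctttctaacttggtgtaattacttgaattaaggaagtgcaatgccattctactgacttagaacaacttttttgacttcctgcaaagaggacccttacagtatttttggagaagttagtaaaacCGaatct
The printed stretch held 24 CpG for GATA2, 32 for RUNX1 and 34 for KIT, but 4 for GATA1, 2 for ITGAM and 1 for PTPRC. TAL1, not printed, goes against this contrast, since the same stretch held 24 CpG at its upstream start, as many as for GATA2, and 14 at its inner start. In the whole windows RUNX1 had 40 CpG, more than 92.4% of 35116 windows in the table, and KIT had 38, more than 90.1%. GATA2 had 29 CpG at its upstream start and 22 at a second, inner start. TAL1, which was not counted as expressed, had 30 and 19 at its 2 starts, so a CpG-rich window was not limited to the expressed members. GATA1 had 7 CpG, ITGAM 2 and PTPRC 1, the last being more than 3.96% of windows. Over the genome, first windows of expressed gene models had a median of 27 CpG, those between 12 and those at the floor 4. The members kept this order only in part. ITGAM, which lay between the limits, had fewer CpG than GATA1 at the floor, and the upstream window of TAL1 had more than that of GATA2.

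**Figure D2:**
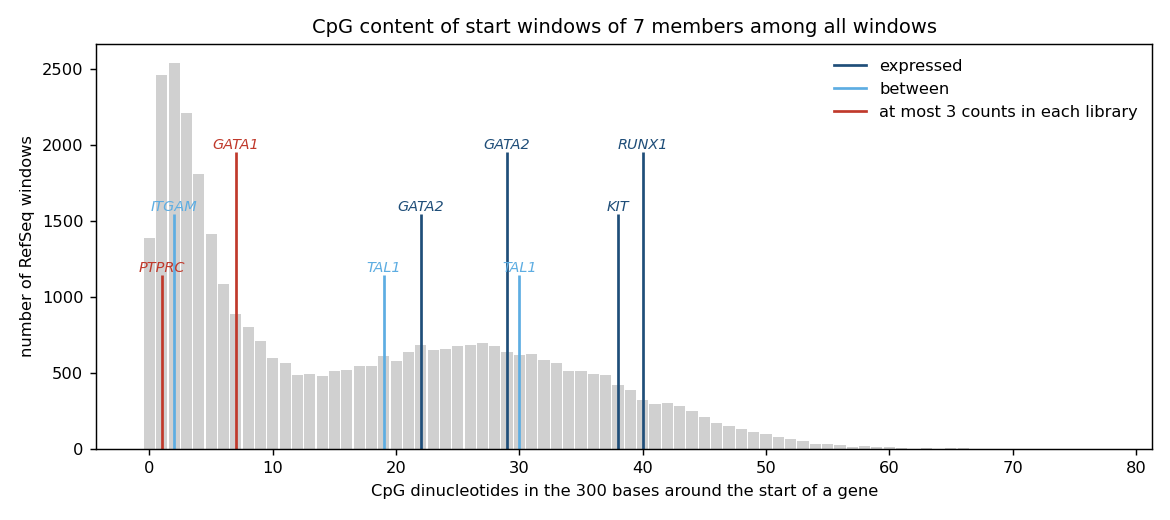
Number of RefSeq start windows (vertical axis) with each number of CpG dinucleotides in 300 bases (horizontal axis), in grey, with the 9 windows of 7 members drawn as labelled lines whose height has no meaning. GATA2, RUNX1 and KIT lie at 22 to 40 CpG, TAL1 at 19 and 30, and GATA1, ITGAM and PTPRC at 1 to 7.

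The windows were also searched on both strands for 4 short motifs, none of which contains another. The GATA motif (AGATAA or TGATAA) was in 16.3% of all windows and, among members, in the upstream TAL1 window with 1 match. The RUNX motif (TGTGGT), found in 13.1% of windows, occurred 3 times in the inner TAL1 window and 1 time in that of ITGAM. The E-box (CAGCTG or CAGATG), found in 29.8%, had 1 match in the inner GATA2 window. The PU.1 core (GAGGAA), found in 27.9%, had 2 matches for ITGAM and 1 each for GATA1, RUNX1 and the inner GATA2 window, and KIT and PTPRC had no match to any of the motifs. A match describes the letters of a window and shows no binding.

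GATA2 (chr3:128479422-128493187, minus strand, hg38) was the most abundant member. It had 2425 and 2876 counts in the libraries of 10 cells, 2339 and 2649 in those of 100 cells, and 2327 and 3081 in those of 1000 cells, or a level of 45.3 to 58.4 CPM with a median of 52.0 and a mean of 52.2 ± 4.72 (SD, n = 6). The single cells had 3284, 2627 and 4109 counts, or 63.4, 51.5 and 78.7 CPM. Single Cell Rep 1 and 3 therefore lay above all 6 libraries of more cells and Single Cell Rep 2 within them. GATA2 had a mean of 28.7 ± 2.56 TPM (SD, n = 6), and of 4735 gene models within a factor of 2 of its level none was at 0 counts in any of the 3 single cells.

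RUNX1 (chr21:34787801-35049298, minus strand), the partner of CBFB in core binding factor, was expressed in every library. It had 937 and 964 counts with 10 cells, 815 and 745 with 100 cells and 742 and 1118 with 1000 cells, or 14.1 to 21.6 CPM with a median of 17.6 and a mean of 17.7 ± 2.65 (SD, n = 6). The single cells had 1182, 729 and 3166 counts, or 22.8, 14.3 and 60.6 CPM. Single Cell Rep 3 was 3.43-fold over the mean of the 6 libraries, and Single Cell Rep 2 was near the lowest of them. Among 3 cells, RUNX1 therefore ranged 4.24-fold and GATA2 1.53-fold.

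KIT (chr4:54657928-54740715, plus strand) had no count in 1 single cell. The libraries of 10 cells had 193 and 419 counts, those of 100 cells 314 and 317 and those of 1000 cells 213 and 390, or 4.44 to 8.51 CPM with a median of 6.05 and a mean of 6.04 ± 1.41 (SD, n = 6). Single Cell Rep 1 had 336 counts and Single Cell Rep 3 had 269, or 6.49 and 5.15 CPM, both within that range. Single Cell Rep 2 had 0 counts of KIT, which is at least 103-fold lower than the mean of the 6 libraries when the floor is set at 3 counts in that library. Of 2579 gene models within a factor of 2 of the level of KIT, 56 (2.17%) were at 0 in the same cell, against 1.40% in Single Cell Rep 1 and 4.85% in Single Cell Rep 3. Such floors cover counting error only, since reads without molecular identifiers are not independent molecules. In the libraries of several cells, fewer cells with a transcript and less of it per cell cannot be told apart.

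TAL1 (chr1:47216290-47232335, minus strand), the basic helix-loop-helix factor of the stem cell and erythroid complex, varied most between single cells among the members seen in all 9 libraries. It had 87 and 22 counts with 10 cells, 32 and 90 with 100 cells and 100 and 147 with 1000 cells, or 0.447 to 2.37 CPM with a median of 1.86 and a mean of 1.58 ± 0.843 (SD, n = 6). The single cells had 567, 519 and 1 count, or 11.0, 10.2 and 0.0192 CPM. Single Cell Rep 1 and 2 were 6.95-fold and 6.46-fold over the mean of the 6 libraries, whereas Single Cell Rep 3, the cell with the highest GATA2 and RUNX1, lay below all of them. Of 1877 gene models of like level, 21.3%, 27.7% and 31.3% had 0 counts in Single Cell Rep 1, 2 and 3. TAL1 missed the definition of expressed because of 10 Cell Rep 2 and 100 Cell Rep 1, the latter at 0.619 CPM.

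LMO2 (chr11:33858576-33892289, minus strand), the adaptor that bridges TAL1 and GATA factors, had 10 counts in 100 Cell Rep 1, 1 in 10 Cell Rep 2, 1 in Single Cell Rep 3 and 0 in the other 6 libraries. Its highest level was 0.194 CPM. GATA1 (chrX:48786574-48794310, plus strand) had 0 counts in all 9 libraries, which allows up to 0.00656 CPM on 3 counts over all of them together. In a single library, 3 counts correspond to 0.0483 to 0.0692 CPM. SPI1 (chr11:47354858-47378576, minus strand) had 8 counts in Single Cell Rep 2, or 0.157 CPM, and 0 in the other 8 libraries. GATA1, LMO2 and SPI1 were thus not detectable as expressed at this depth, while GATA2, RUNX1 and in most libraries TAL1 were.

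The surface markers of leukocytes were low with 1 exception. PTPRC (chr1:198638968-198757476, plus strand) had a single count, in 100 Cell Rep 2. Its gene model also includes an alternate contig, and reads that mapped to both places were not counted. Among protein-coding gene models, 717 also lie on an alternate contig and 17202 on a chromosome only. Of these, 31.7% and 15.0% had 0 counts in all 9 libraries, in that order, while 43.0% and 61.2% were expressed. Reads could still be counted for such genes, since TUBB, on 7 alternate contigs, had 72311 to 106658 counts in a library. The part of the alternate contig in the level of PTPRC was not tested. ITGAM (chr16:31259967-31332892, plus strand) had 145 counts in Single Cell Rep 1 and 83 in Single Cell Rep 2, or 2.80 and 1.63 CPM, and 0 in Single Cell Rep 3. In the libraries of 10 and 100 cells ITGAM had 0 counts, and in those of 1000 cells it had 2 and 3. Of 7747 gene models with at most 3 counts in each of the 6 libraries of more cells, 18, 31 and 14 reached 1 CPM in Single Cell Rep 1, 2 and 3, and only 2 (0.0258%), ITGAM and ZNF625, did so in 2 of the cells. ZNF625 was noticed after its values were seen.

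HBA1 (chr16:176651-177522, plus strand) was present at a trace. It had 4 and 30 counts with 10 cells, 18 and 12 with 100 cells and 3 and 9 with 1000 cells, or 0.0692 to 0.609 CPM with a median of 0.186 and a mean of 0.249 ± 0.204 (SD, n = 6). Single Cell Rep 1 had 84 counts, or 1.62 CPM, 6.53-fold over that mean. Single Cell Rep 2 and 3 had 0, at least 4.23-fold and 4.33-fold lower, where 71.4% to 76.8% of gene models of like level had 0 counts in a single cell. HBA1 has a near-identical copy, HBA2, and reads that mapped to both were not counted, so its level is uncertain. HBA2 itself had 2 counts in 1000 Cell Rep 2 and 0 elsewhere. None of the exon bases of the 10 members was shared with another gene model on either strand.

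Per length, the order of the members over the 6 libraries of 10, 100 and 1000 cells was GATA2, RUNX1, KIT, HBA1 and TAL1. GATA2 spanned 25.0 to 32.3 TPM, RUNX1 3.64 to 5.50 TPM and KIT 1.75 to 3.42 TPM, and these 3 ranges did not overlap. HBA1 spanned 0.237 to 2.09 TPM, which overlapped with KIT, and TAL1 spanned 0.182 to 0.969 TPM, which overlapped with HBA1. Among all gene models, GATA2 ranked 4754 by mean TPM, RUNX1 11005 and KIT 12287.

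**Figure D3:**
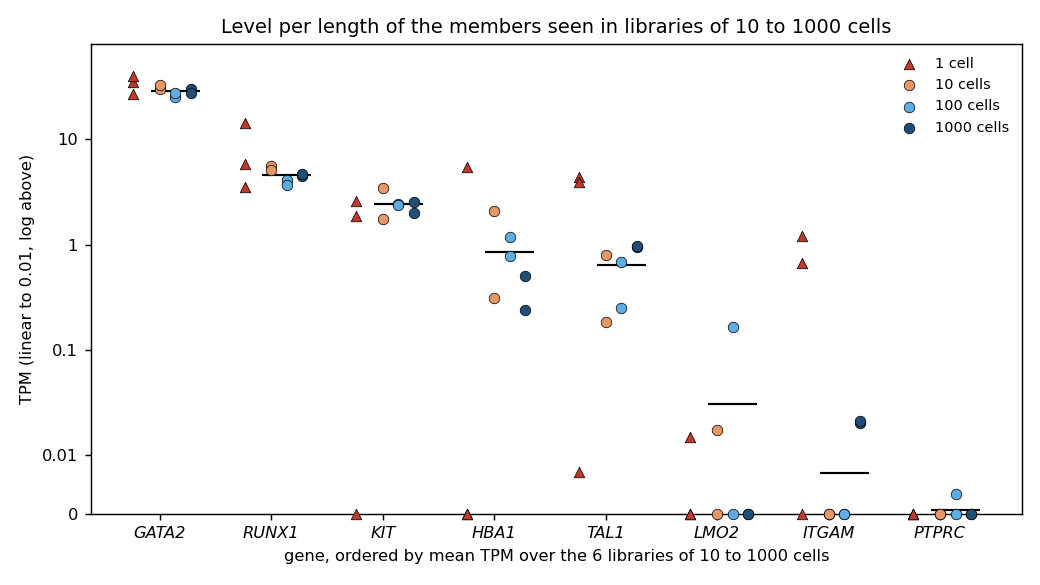
Level per exon length (TPM, linear to 0.01 and logarithmic above) of the 8 members with a count in at least 1 library of 10 to 1000 cells, ordered by their mean over those 6 libraries (line). Triangles are single cells and circles the libraries of 10, 100 and 1000 cells. GATA2, RUNX1 and KIT keep apart in the circles, while the triangles of TAL1, HBA1 and ITGAM lie on both sides of their circles or at 0.

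To ask whether the members differed between single cells and more cells, the 3 single cells were compared with the 6 other libraries by edgeR's quasi-likelihood test with Benjamini-Hochberg adjustment. Of 15603 gene models tested, 1041 (6.67%) were called, 347 (2.22%) higher and 694 (4.45%) lower in single cells. Low counts kept 5 members out of the test (GATA1, LMO2, SPI1, PTPRC and ITGAM), and 0 of the 5 tested were called. RUNX1 alone had an unadjusted p under 0.05, at 0.0301, and DESeq2 also called 0 of these 5. The log2 fold change was 0.31 (SE 0.15, adjusted p = 0.221) for GATA2, 0.88 (SE 0.36, adjusted p = 0.151) for RUNX1 and 2.16 (SE 1.06, adjusted p = 0.237) for TAL1. It was −0.64 (SE 1.02, adjusted p = 0.759) for KIT and 1.11 (SE 1.5, adjusted p = 0.710) for HBA1. The median of the 5 was 0.88, the value of RUNX1 itself, beside 0.01 over all gene models tested. Of the 5, 4 lay above 0, and the share of all gene models above 0 was not computed.

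Individual cells decided several of these values. Without Single Cell Rep 3, the log2 fold change of RUNX1 was 0.07 and that of GATA2 0.14, both far from the threshold, and that of TAL1 was 2.74 (adjusted p = 0.0145, edgeR). Without Single Cell Rep 2, GATA2 at 0.44 (adjusted p = 0.0370) and RUNX1 at 1.24 (adjusted p = 0.0188) passed the edgeR test. Without Single Cell Rep 1, HBA1, then at 0 counts in both remaining cells, turned to −6.67 (adjusted p = 0.0459), a fitted value that depends on the prior count. A fit without the filter on low counts gave ITGAM a log2 fold change of 6.33 (SE 1.68, adjusted p = 0.0562, edgeR), which missed the threshold.

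**Figure D4:**
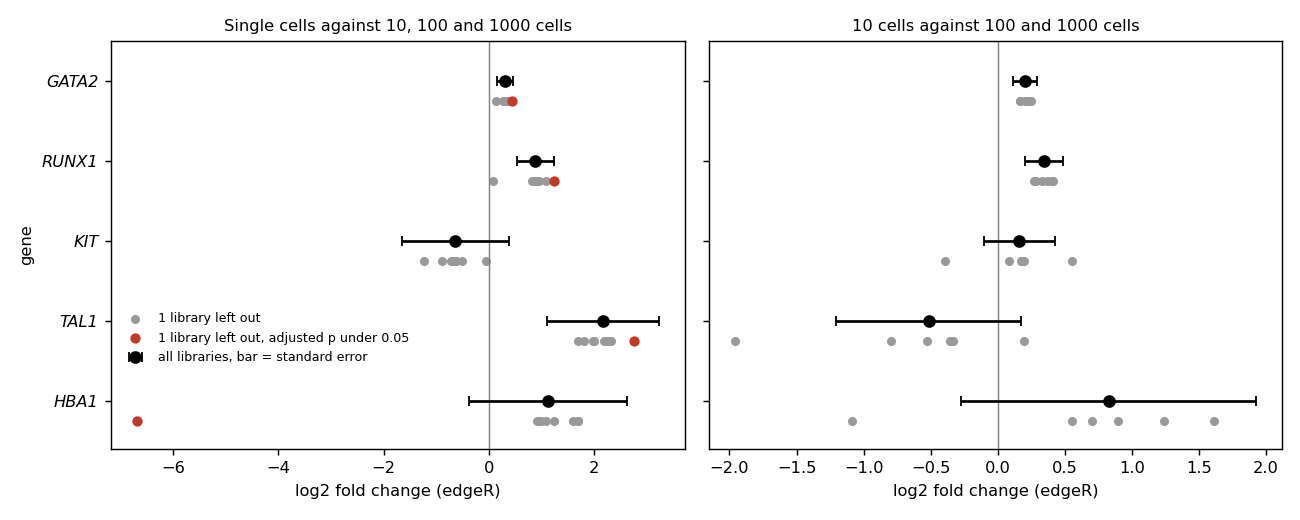
Log2 fold changes from edgeR of the 5 members tested, for single cells against 10, 100 and 1000 cells (left) and 10 against 100 and 1000 cells (right, with another scale). Black points are all libraries with the standard error as bar, and points underneath leave out 1 library each, in red where the adjusted p was under 0.05. Black bars of KIT and HBA1 cross 0 in both panels.

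Between 10 cells and the libraries of 100 and 1000 cells, 3 of 15926 gene models (0.0188%) were called by edgeR, 2 (0.0126%) higher and 1 (0.00628%) lower with 10 cells, and 0 of the 5 members tested were among them. GATA2 and RUNX1 had unadjusted p of 0.0430 and 0.0317, and DESeq2 called 0 of the 5. The log2 fold change was 0.20 (SE 0.09, adjusted p = 0.357) for GATA2 and 0.34 (SE 0.14, adjusted p = 0.324) for RUNX1. For TAL1, KIT and HBA1 it was −0.52, 0.16 and 0.83, with adjusted p from 0.793 to 0.839. The levels of both libraries of 10 cells lay above the other 4 for GATA2, at 55.8 and 58.4 against 45.3 to 53.7 CPM, and for RUNX1, at 21.6 and 19.6 against 14.1 to 18.0 CPM.

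Over the 9 libraries, the level of GATA2 went with that of RUNX1 (Pearson r = 0.913 of log2 CPM). TAL1 had r = −0.685 with RUNX1 and −0.468 with GATA2. Single Cell Rep 3 had the highest GATA2 and RUNX1 (78.7 and 60.6 CPM) and the lowest TAL1 (0.0192 CPM). These 3 values of r were not computed without that cell, so a relation beyond it is not shown. KIT had r of 0.163 with GATA2 and 0.266 with RUNX1. Among 13470 gene models with a mean of at least 1 CPM, the patterns most like that of GATA2 were LOC100505817 (r = 0.991), ZNF141 (0.986) and MUC4 (0.982). Those most like RUNX1 were KLHL25 (0.984), WDR81 (0.979) and SPRY1 (0.979), and those most like KIT were CAPN5 (0.997), LAS1L (0.992) and GOLGA2P10 (0.991). These are descriptions over 9 libraries that all values share, and the highest of many gene models reach high r with so few points.

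The counts of expressed genes in related lists are read beside the 47.3% of all gene models that were expressed. That share runs over all 26485 gene models, protein coding or not. Of 17202 protein-coding gene models on a chromosome only, 61.2% were expressed. Of 19 binding partners and cofactors of the members, 16 (84.2%) were expressed, led per length by KDM1A (230 ± 4.12 TPM, SD, n = 6) and EP300 (111 ± 5.02 TPM), and the list included the RUNX1 partner CBFB and the LMO2 partner LDB1. KITLG, the ligand of KIT, was expressed at 15.8 ± 1.99 TPM. Of 21 relatives of the members, 5 (23.8%) were expressed (GATA3, LMO3, LMO4, RUNX3 and PDGFRA), with PDGFRA, a receptor of the KIT family, at 37.2 ± 2.76 TPM and GATA3 at 11.9 ± 1.16 TPM. Of 32 other transcription factors of blood cells, 16 were expressed, a share near that of all gene models and under that of protein-coding ones. TCF7 and MEIS1 were at 16.6 ± 2.39 and 16.5 ± 1.03 TPM.

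The other blood lists, which hold genes of mature cells but also progenitor surface genes and cytokine receptors, had lower shares of expressed genes, from 0 to 36.0%. Low shares were not particular to blood. Of the markers of other tissues, 16.7% of the endothelial and 25.0% of the fibroblast list were expressed, but 75.0% of the epithelial and adhesion list. Of 9 globins, only HBQ1, the theta chain, was expressed (11.5 ± 3.11 TPM), HBZ was at a trace, and 7 were at the floor. Reads that mapped to several places were not counted, so the level of globins with a near-identical copy, such as HBA2, is uncertain. Among 25 genes of red cell membrane, haem and iron, 9 were expressed, led by TFRC (204 ± 7.45 TPM) and EPB41 (102 ± 4.39 TPM), which other cell types use too. Expressed were 1 of 10 platelet genes (ITGA2B, with GP1BA at a trace), 1 of 22 leukocyte and progenitor surface genes (PROM1, with CD8A at a trace), and 1 of 12 cytokine receptors (EPOR, with IL6R at a trace). Expressed were also 4 of 29 genes of leukocyte signalling and cytoskeleton, led by CYBA (65.2 ± 4.41 TPM) and LYN (22.3 ± 1.59 TPM), and 0 of 10 myeloid granule genes, where PRTN3 and S100A9 were seen in single cells. Over all 10 blood lists, without the members and with each gene counted once, 53 of 184 genes (28.8%) were expressed and 52 (28.3%) were at the floor. Of all gene models, 47.3% were expressed and 28.6% at the floor, and of protein-coding ones on a chromosome only 61.2% were expressed. The floor share of protein-coding gene models alone was not computed, and 15.0% of those on a chromosome only had 0 counts in all libraries.

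**Figure D5:**
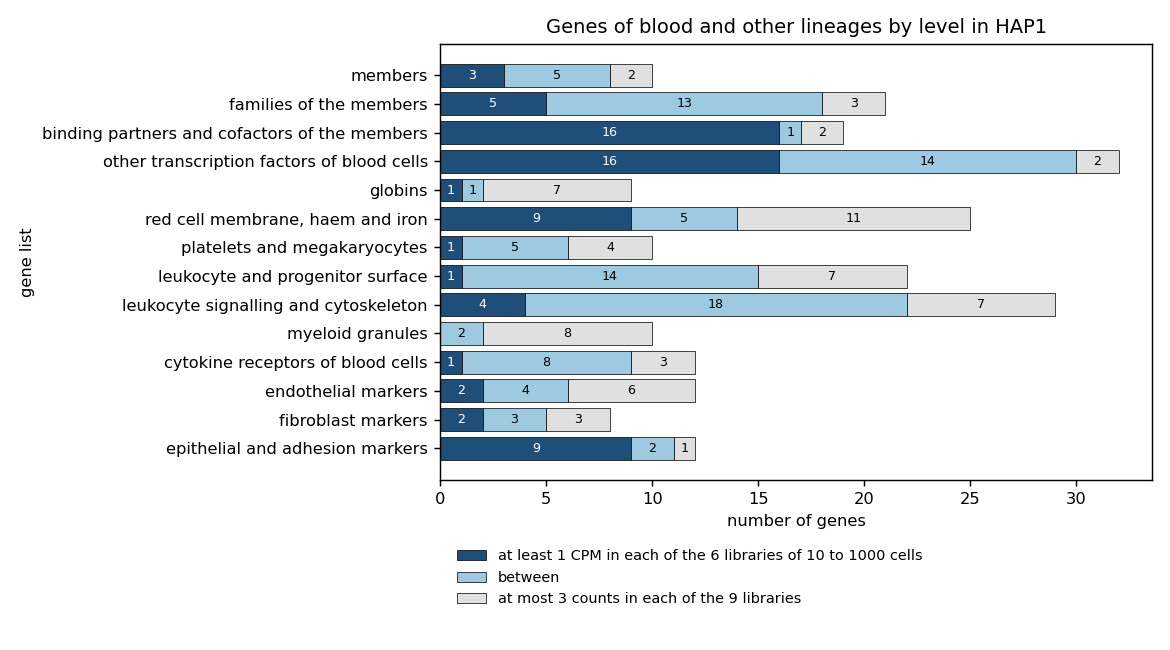
Number of genes in each list that were expressed (at least 1 CPM in each of the 6 libraries of 10 to 1000 cells), at the floor (at most 3 counts in each of the 9 libraries) or between. The members split 3, 5 and 2, binding partners are mostly expressed (16 of 19) and globins mostly at the floor (7 of 9).

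Markers of other tissues were looked at in the same way. Of 12 epithelial and adhesion markers, 9 were expressed, led by VIM (708 ± 46.5 TPM) and VCL (159 ± 6.75 TPM), which are not epithelial markers but mesenchymal and adhesion genes. Of the epithelial genes in that list, KRT8 and KRT18 were expressed, while CDH1 and EPCAM were at a trace with 0 counts in the 3 single cells, and KRT19 had 0 counts in all libraries. Of 8 fibroblast markers, PDPN (122 ± 3.40 TPM) and COL1A1 (4.18 ± 1.01 TPM) were expressed, and DCN had 0 counts in all libraries. Of 12 endothelial markers, a cell type that also uses GATA2 and TAL1, EGFL7 (4.55 ± 0.954 TPM) and ESAM (2.40 ± 0.775 TPM) were expressed, and CDH5 and EMCN had 0 counts in all libraries. The summed endothelial level was 6.14 to 15.2 CPM in single cells and 5.64 to 10.3 CPM in the other libraries, the fibroblast sum 159 to 188 and 184 to 193 CPM, and the epithelial and adhesion sum 1730 to 1930 and 1940 to 2150 CPM. The part of these sums in the members' levels was not tested.

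In the comparison of single cells with more cells, 3 of the 105 listed genes tested besides the members (2.86%) passed the edgeR test, beside 6.67% of all gene models, and all 3 were lower in single cells. IL7R, the interleukin receptor of lymphocytes, had 0 counts in the 3 cells and 1.45 ± 0.844 CPM (SD, n = 6) in the other libraries (adjusted p = 0.0188), at least 74.7-fold lower on a floor of 3 counts over the cells. FLT3, a receptor kinase of the KIT family, also had 0 counts in the 3 cells against 0.287 ± 0.188 CPM (adjusted p = 0.0481), at least 14.8-fold lower on the same floor. Both bounds cover counting error only. The share of gene models of like level at 0 was not computed for IL7R and FLT3. Around the level of TAL1 (mean 1.58 CPM) it was 21.3% to 31.3% in a single cell, and around that of HBA1 (mean 0.249 CPM) 71.4% to 76.8%. SSBP2, a partner of LDB1, had 12.4, 11.5 and 14.1 CPM in the cells and 22.4 ± 2.63 CPM in the other libraries (log2 fold change −0.83, SE 0.20, adjusted p = 0.0330). Without 100 Cell Rep 2, 1000 Cell Rep 1 or 1000 Cell Rep 2, no gene model passed, so none of the 3 did (2994, 3028 and 2974 gene models had an unadjusted p under 0.05). In 10 cells against 100 and 1000 cells, no gene of any list was called.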

How the data were processed

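RNA from 9 libraries of sorted HAP1 cells was analysed. The deposited values are raw read counts per gene, made by the authors, per the labels, with FastQC 0.11.9, Trim Galore 0.6.7, HISAT2 2.2.1 (hg38), SAMtools 1.16.1 and featureCounts of Subread 2.0.6. The file headers state the strand setting 2. Each mate of a pair was counted by itself, and multimapping reads were dropped, so copies such as HBA1 and HBA2 are undercounted. The annotation release is not given in the sources used here. Totals were 42842970 to 61645865 counts, without molecular identifiers.

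Counts were scaled with TMM to CPM, TPM used the deposited exon lengths, and a prior count of 2 was added for log2 CPM. Groups were compared in R 4.3.3 with edgeR 4.0.16 (filterByExpr, quasi-likelihood test, Benjamini-Hochberg adjusted p under 0.05), which was tested on simulated data. The SE given with edgeR fold changes was derived from the test, as the absolute log2 fold change divided by the square root of its F statistic. Alternatives were DESeq2 1.42.0, other scaling, filters, thresholds and depth, a replicate block, and fits that each lacked 1 library. The members and lists were chosen with earlier results of these data known. Named were all 10 members, in each of 13 lists the 2 genes with the highest mean TPM over the 9 libraries and any that passed a test, and for each expressed member the 3 gene models with the highest Pearson r. Other listed genes are named for their role.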

Additional observations from a re-analysis of the deposited data

Results flagged for a closer look

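In 8 sets of 6 libraries (10, 100 and 1000 cells), 1 set for each member with a count there, 2 members had a library far from the rest by Dixon's test. Chance flags about 1 in 20 sets of continuous values, a rate that does not hold for counts this low, where a gene seen in 1 library alone must stand apart. LMO2 was at 0.194 CPM (10 counts) in 100 Cell Rep 1, with a gap to the next library of 0.895 of the whole range, over Dixon's critical value for 6 libraries. PTPRC was at 0.019 CPM in 100 Cell Rep 2, which is a single count against 0 in the other 5 libraries.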

How the results depend on the processing

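The set of expressed members (GATA2, KIT and RUNX1) was the same under all 14 alternatives, and without Single Cell Rep 2 or 100 Cell Rep 1 there were 3 members at the floor. The number of gene models called in single cells against more cells, 1041, was 3123 with DESeq2's Wald test, 682 without the filter, 576 with at least 10 CPM in 2 libraries (312 higher and 264 lower) and 2077 with the replicate number as a block. Leaving out 1 library each gave 0 to 3188. It was 2869, 3188 and 2406 without Single Cell Rep 1, 2 and 3, 669 without 10 Cell Rep 2, 679 without 100 Cell Rep 1, and 0 without 100 Cell Rep 2, 1000 Cell Rep 1 or 1000 Cell Rep 2. For 10 against 100 and 1000 cells, 3 became 285 with DESeq2, 7 without the filter, 3 with the replicate block, and 0 to 162 with 1 library left out. It was 0 without either library of 10 cells (2936 and 3238 gene models at an unadjusted p under 0.05) and 162 without 100 Cell Rep 1. The cause of these shifts was not tested.

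The replicate numbers did not pair the libraries, since differences between replicates 1 and 2 correlated between −0.079 and 0.03. Under the block, TAL1 reached 2.75 (adjusted p = 0.0245, edgeR) in single cells, but Single Cell Rep 3 is the only library numbered 3, so the block term takes it up. Of 130 member values under alternatives, 122 kept direction and side of the threshold and 4 passed it in the same direction (TAL1 by the block and without Single Cell Rep 3, GATA2 and RUNX1 without Single Cell Rep 2). The other 4 changed sign, HBA1 to −6.67 without Single Cell Rep 1, which also passed it (adjusted p = 0.0459, edgeR; up to 1.69 without another library), and in 10 cells without 10 Cell Rep 2 TAL1 to 0.19, KIT to −0.39 and HBA1 to −1.08. With another library left out, these last 3 reached −1.96, 0.55 and 1.61. Depth limits what can be said of members with few counts, for which 3 counts in a library are 0.0483 to 0.0692 CPM.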

Other observations

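Other blood genes also differed between the single cells. EPOR, the erythropoietin receptor, had 458, 0 and 826 counts in Single Cell Rep 1, 2 and 3, so it was at 0 in the same cell as KIT, and 5.73 ± 1.04 CPM (SD, n = 6) in the libraries of more cells. IL6R, an interleukin receptor chain, had 282, 189 and 0 counts, HBQ1 had 144, 278 and 5, and CD8A had 54, 131 and 0, all lowest in Single Cell Rep 3 as TAL1 and ITGAM were. PROM1, a surface protein of progenitor and epithelial cells, had 23.9, 4.94 and 40.3 CPM in the single cells against 6.83 ± 2.24 CPM in the other libraries (adjusted p = 0.0546, edgeR). ITGA2B, the platelet integrin chain, had 13.3, 3.49 and 24.7 CPM against 6.51 ± 1.53 CPM. PRTN3, a neutrophil protease, had 96, 0 and 163 counts in the single cells and at most 12 in any other library, and S100A9 had 37 counts in Single Cell Rep 2 and 0 elsewhere. These patterns were noticed after the values were seen, and no difference between individual cells can be tested with 1 library per cell.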
